A study of Drosophila melanogaster with 9 samples.

Results

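The genes described here are 7 genes of protein folding in the endoplasmic reticulum (ER) and of the unfolded protein response (UPR), in the ring gland of Drosophila melanogaster larvae. They were chosen by symbol, and all 7 were found among the 14409 rows of the deposited gene table: PEK, crc, Xbp1, Hsc70-3, Gp93, Pdi and ERp60. All 7 passed the filter on low counts. The ring gland is the larval endocrine organ, which holds the prothoracic gland, the corpora allata and the corpora cardiaca. RNA was sequenced from pools of glands dissected from w1118 larvae, a white-eyed laboratory strain that served in every group. There were 3 groups of 3 pools. Larvae of the first were feeding, and those of the others were starved either before or after the nutrient restriction checkpoint (NRC), here pre-NRC and post-NRC starvation. The column names of the feeding libraries carry a time of 108 h, without saying from when it counts. For the starved larvae the labels give neither an age nor the length of starvation. Larval age and starvation therefore cannot be told apart in a comparison with feeding or between the starved groups.

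Proteins that leave the cell or sit in its membranes are folded in the ER, where chaperones hold unfolded chains and protein disulfide isomerases join their cysteines. When unfolded chains build up, sensors in the ER membrane start the UPR. The kinase PEK (PERK) phosphorylates the initiation factor eIF2alpha, which lowers translation in general and favours that of ATF4, in flies the product of crc. The sensor Ire1 splices the messenger of Xbp1, which then encodes a factor that switches on chaperone genes. Gene counts of the kind deposited do not tell the spliced Xbp1 messenger from the unspliced one, and they do not report phosphorylation or translation.

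Before the checkpoint, 6 of the 7 genes stood lower under starvation than in feeding glands within each of the 3 replicate numbers, with fitted changes of -55.3% to -29.3%, and PEK did not. In the fit of groups described below, 2 of the 7 were called, both lower. In that fit 27.5% of all genes tested were called, and 11.5% were called lower. After the checkpoint the chaperones and isomerases were at levels that overlapped those of feeding glands. Within the replicate numbers, 5 of the 7 genes still stood lower than in feeding in all 3, Hsc70-3, Pdi and ERp60 among them, and Gp93 stood higher. Levels also depended on the library: in each group, library 3 held the highest values of Hsc70-3, Gp93, Pdi and ERp60, in scaled counts and in FPKM alike. For crc and Xbp1 library 3 held the lowest scaled counts of each group, but in FPKM this did not hold for crc in pre-NRC starvation or for Xbp1 in either starved group.

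Libraries held 29123939 to 36131089 counts, of which the 7 genes together took 0.574% to 0.746% in feeding, 0.294% to 0.475% in pre-NRC starvation and 0.448% to 0.671% in post-NRC starvation. The 3 libraries numbered 3 lay between -79.2 and -38.7 on the second principal component of all tested genes (16.5% of the variance), apart from the other 6, which lay between 2.67 and 48.8. Calls of the 7 genes and counts of the gene lists are therefore also given without those 3 libraries where they differ. For every gene and library the deposited table gives a count and a level in FPKM, in which fragments are divided by gene length and sequencing depth. Counts are shown as CPM, that is, relative to the scaled library size. Changes are log2 values with their standard error (SE) from edgeR's quasi-likelihood test on all 9 libraries, with Benjamini-Hochberg adjustment over the 10883 genes tested, and a gene was called where the adjusted p was below 0.05.

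**Figure D1:**
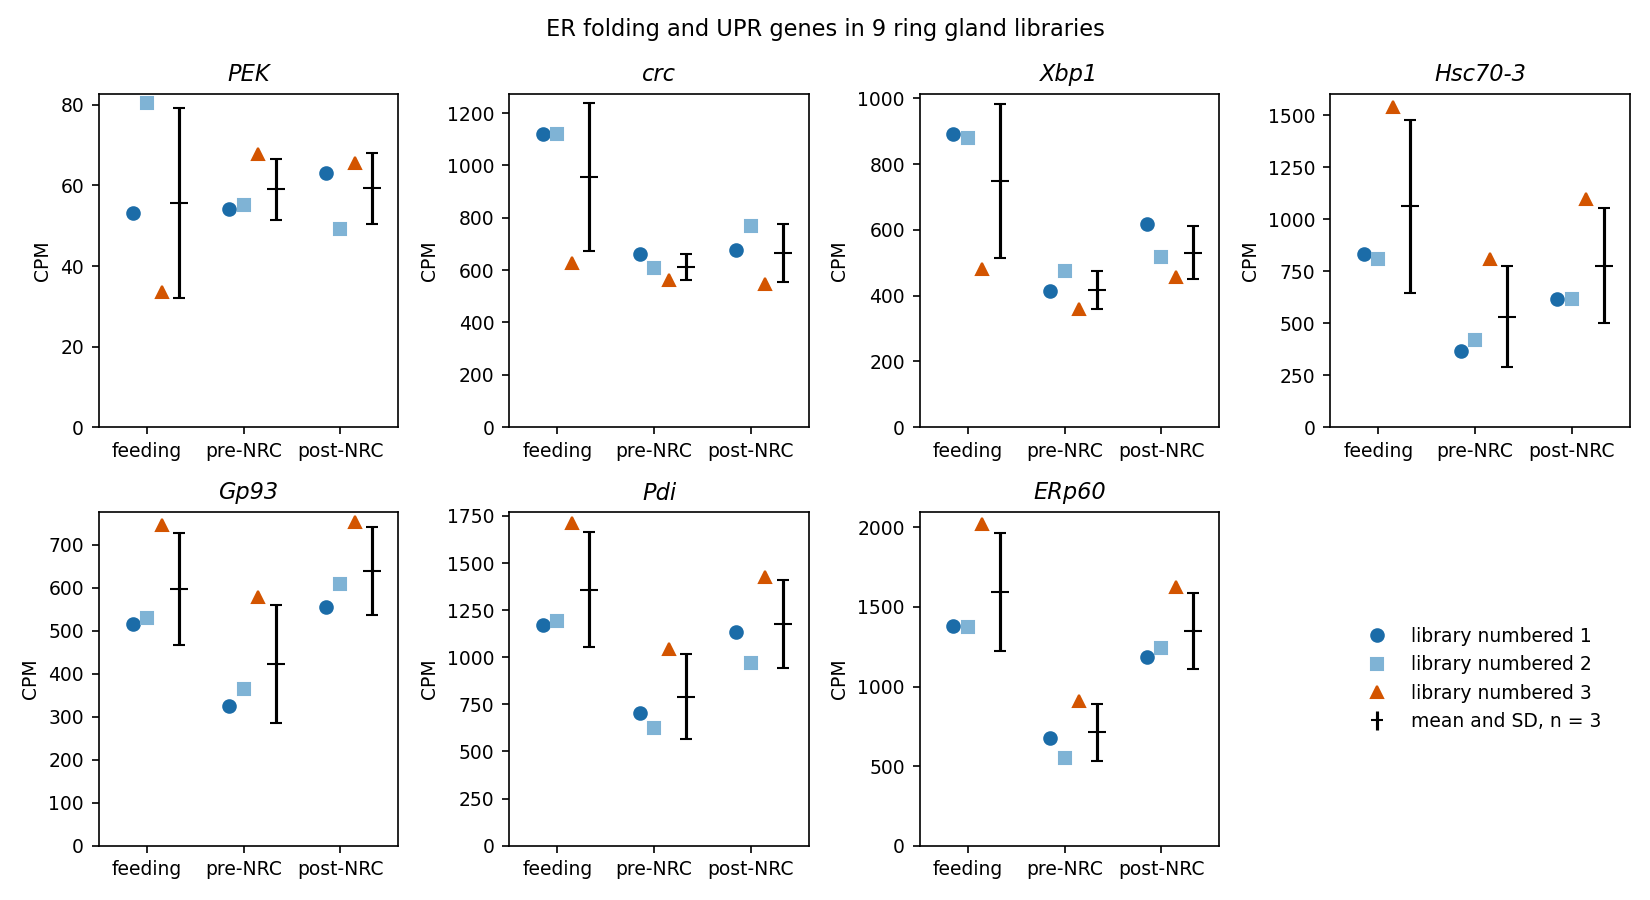
Level of each of the 7 genes in CPM (y axis, from 0) in the 9 libraries by group (x axis), with the mean and SD of the 3 libraries of a group as a bar beside the points. In library 3 (triangles) Hsc70-3, Gp93, Pdi and ERp60 stood highest in every group, at 1543, 746, 1713 and 2022 CPM in feeding, and crc and Xbp1 stood lowest in CPM.

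PEK (FBgn0037327, 3R, 5458563 to 5464753, minus strand, in build BDGP6) encodes the eIF2alpha kinase of the ER membrane. Its level was 53.1, 80.4 and 33.5 CPM in the feeding libraries 1, 2 and 3. It was 54.3, 55.1 and 67.7 CPM in pre-NRC and 63.1, 49.2 and 65.5 CPM in post-NRC starvation. The ranges of the 3 groups overlapped, and the feeding libraries spread wider than either starved group. The log2 change was 0.08 (SE 0.30, adjusted p = 0.858) in pre-NRC and 0.09 (SE 0.30, adjusted p = 0.93) in post-NRC starvation against feeding. Its sign was not stable: without feeding library 3 these changes were -0.19 and -0.18, the first was -0.03 without pre-NRC library 3, and without all 3 libraries numbered 3 they were -0.31 (adjusted p = 0.342) and -0.25 (adjusted p = 0.556).

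The gene crc (FBgn0000370, 2L, 21310866 to 21319527, plus strand) encodes ATF4, the transcription factor of the PERK branch. Its level was 1121, 1119 and 628 CPM in feeding, 663, 610.0 and 563 CPM in pre-NRC starvation, and 678, 767 and 547 CPM in post-NRC starvation. Feeding libraries 1 and 2 stood above all 6 starved libraries, and feeding library 3 fell among the starved values. The change in pre-NRC starvation was -0.64 (SE 0.27, adjusted p = 0.101) and did not pass. With the replicate number as a block it was -0.60 (adjusted p = 0.0416), and without the libraries numbered 3 it was -0.83 (SE 0.13, adjusted p = 0.00649). Of the exonic bases of crc in the annotation, 73.5% are shared with CG46314 on the same strand, so counts of crc may include reads of that gene.

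Xbp1 (FBgn0021872, 2R, 21143545 to 21145750, plus strand) encodes the transcription factor of the Ire1 branch. Its level was 891, 879 and 479.8 CPM in feeding, 415, 475 and 359 CPM in pre-NRC starvation, and 618, 519 and 457 CPM in post-NRC starvation. All pre-NRC libraries lay below all feeding libraries, though the highest of them came within a few CPM of feeding library 3. Xbp1 fell in pre-NRC starvation, with a log2 change of -0.85 (SE 0.28, adjusted p = 0.0491). This call was at the threshold: when each of the 9 libraries was left out in turn it held in 1 fit, that without feeding library 3 (adjusted p = 0.0152), with values of up to 0.165 in the others, and it was lost with RLE factors (0.0526) and limma-voom (0.0568). With the block the adjusted p was 0.0186 and without the libraries numbered 3 it was 0.00495, at a change of -1.01.

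Hsc70-3 (FBgn0001218, X, 11801696 to 11807117, minus strand) encodes BiP, the Hsp70 of the ER, which holds unfolded chains and binds the UPR sensors. Its level was 835, 808 and 1543 CPM in feeding, 368, 418 and 811 CPM in pre-NRC starvation, and 615, 618 and 1098 CPM in post-NRC starvation. Library 3 was the high one in each group, and pre-NRC library 3 lay within the feeding range. Within each number the pre-NRC library was lower than the feeding one, with log2 differences of -1.18, -0.95 and -0.93. The change in the fit of groups was -0.997 (SE 0.41, adjusted p = 0.101), which did not pass. It was -1.02 with the block (SE 0.14, adjusted p = 0.00449) and -1.08 without the libraries numbered 3 (adjusted p = 0.00267).

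Gp93 (FBgn0039562, 3R, 27948711 to 27952151, plus strand) encodes the ER member of the Hsp90 family, GRP94 in mammals. Its level was 515, 529 and 746 CPM in feeding, 324, 363 and 579 CPM in pre-NRC starvation, and 554, 608 and 752 CPM in post-NRC starvation. The post-NRC libraries covered the same range as the feeding ones, and pre-NRC library 3 lay inside it. The change in pre-NRC starvation was -0.50 (SE 0.28, adjusted p = 0.21), against -0.52 with the block (adjusted p = 0.0314) and -0.62 without the libraries numbered 3 (adjusted p = 0.0142).

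Pdi and ERp60 encode protein disulfide isomerases, which make and rearrange disulfide bonds. Pdi (FBgn0014002, 3L, 15137738 to 15142840, minus strand) stood at 1173, 1191 and 1713 CPM in feeding, 703, 622 and 1045 CPM in pre-NRC starvation, and 1135, 967 and 1427 CPM in post-NRC starvation. Every pre-NRC library lay below every feeding library, and the change was -0.78 (SE 0.28, adjusted p = 0.0674). With the block it was -0.80 (adjusted p = 0.00854), and without the libraries numbered 3 it was -0.86 (adjusted p = 0.00803). An antisense RNA gene, CR45396, covers 21.5% of the exonic bases of Pdi. Whether the counts of Pdi include its reads is not known, since no source used here gives the strand setting of the counts.

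ERp60 (FBgn0033663, 2R, 11887568 to 11890979, minus strand) stood at 1379, 1376 and 2022 CPM in feeding, 677, 551 and 907 CPM in pre-NRC starvation, and 1184, 1245 and 1623 CPM in post-NRC starvation. The pre-NRC libraries lay below those of both other groups, with no overlap. ERp60 fell in pre-NRC starvation, with a log2 change of -1.16 (SE 0.27, adjusted p = 0.0171), or -55.3%. The call held in 7 of the 9 leave-one-out fits, and was lost without pre-NRC library 1 (adjusted p = 0.0562) or 2 (0.0645). With the block the adjusted p was 0.00406, and without the libraries numbered 3 it was 0.00343.

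In pre-NRC starvation against feeding, then, 2 of the 7 genes were called, both lower, where 27.5% of all genes tested were called and 11.5% were called lower. At an unadjusted p below 0.05 there were 5, a count whose share over all genes is not given here. With the block 6 of the 7 were called lower (18.8% of all genes), and 6 without the libraries numbered 3 (21.6% of all genes). The last fit leaves feeding with libraries 1 and 2 alone, which were nearly alike, so its SE values rest on a small feeding spread. With feeding libraries 1 and 2 summed as 1 library, and library 3 kept, 1 of the 7 was called. The count was 0 without pre-NRC library 1 or 2, 1 without feeding library 1 or 2 or any 1 post-NRC library, 3 without feeding library 3 and 4 without pre-NRC library 3. Over all genes, these 9 fits called 1166 to 3404, higher or lower. In 3 of the 7 genes the groups did not overlap, each with starved glands lower, against 23.1% of all genes tested. The median change of the 7 was -0.78, and that of all genes tested was 0.00.

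**Figure D2:**
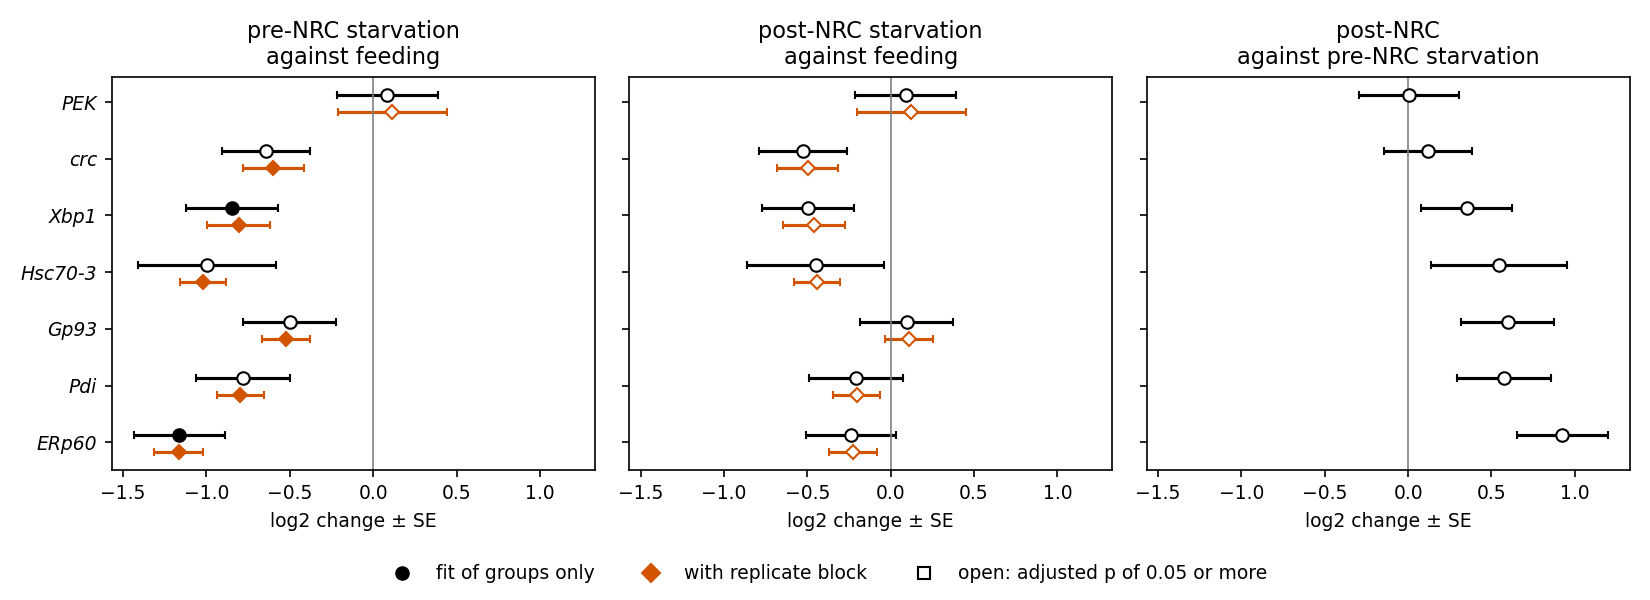
Log2 change of the 7 genes with its SE (x axis) in the 3 comparisons, from the fit of groups only (circles) and, in the comparisons with feeding, from the fit with the replicate number as a block (diamonds). Filled symbols have an adjusted p below 0.05: ERp60 and Xbp1 in pre-NRC starvation against feeding in the fit of groups only, and all but PEK with the block.

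In post-NRC starvation against feeding 0 of the 7 genes were called in edgeR, at an unadjusted p below 0.05, in DESeq2 or in limma-voom, where edgeR called 0.809% of all genes tested. The count was also 0 with the block (1.77% of all genes) and without the libraries numbered 3 (6.83% of all genes). At an unadjusted p below 0.05 both of these fits gave 3 of the 7, a count whose share over all genes is not given here. No member's groups were free of overlap, against 23.3% of all genes. The largest differences were those of crc (-0.53, SE 0.27, adjusted p = 0.409) and Xbp1 (-0.50, SE 0.27, adjusted p = 0.458). Without the libraries numbered 3 these were -0.63 (adjusted p = 0.0542) and -0.64 (adjusted p = 0.0679). For the chaperones and isomerases the changes were -0.45 for Hsc70-3 (SE 0.41), 0.10 for Gp93 (SE 0.28), -0.21 for Pdi (SE 0.28) and -0.24 for ERp60 (SE 0.27). The sign of the Gp93 change was not stable, at -0.04 without post-NRC library 3.

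The difference between the starved groups was tested directly, as post-NRC against pre-NRC starvation. In edgeR 0 of the 7 genes were called, against 5.19% of all genes tested, with 1 at an unadjusted p below 0.05, 1 in DESeq2 and 0 in limma-voom. ERp60 stood 0.93 higher after the checkpoint on the log2 scale (SE 0.27, adjusted p = 0.076, and 0.0246 in DESeq2), with every post-NRC library above every pre-NRC library. It was the 1 member whose groups did not overlap, where 13.7% of all genes stood higher without overlap. Gp93 stood 0.60 higher (SE 0.28, adjusted p = 0.207), Pdi 0.57 (SE 0.28, adjusted p = 0.224) and Hsc70-3 0.55 (SE 0.41, adjusted p = 0.422). Without the libraries numbered 3, 4 of the 7 were called higher, against 15.4% of all genes: ERp60 (1.00, adjusted p = 0.01), Gp93 (0.78, adjusted p = 0.0123), Hsc70-3 (0.67, adjusted p = 0.017) and Pdi (0.68, adjusted p = 0.0242). With the block the same 4 were called higher, against 7.06% of all genes. For crc (0.12, adjusted p = 0.815), Xbp1 (0.35, adjusted p = 0.44) and PEK (0.01, adjusted p = 0.994) the test did not pass in any of these fits.

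Levels of different genes were compared in FPKM, which divides by gene length. ERp60 had the highest group mean in each group, at 720.3 ± 190.9 FPKM in feeding, 319.9 ± 110.5 in pre-NRC and 596 ± 173 in post-NRC starvation (mean ± SD, n = 3). Pdi came next in each group, at 534 ± 137, 302 ± 128 and 452 ± 140 FPKM, and crc after it, at 398 ± 111, 253 ± 10.1 and 268 ± 18.8 FPKM. ERp60 was the highest of the 7 in 7 of the 9 libraries, while crc was highest in pre-NRC library 2 and Pdi in pre-NRC library 3. Hsc70-3, Xbp1 and Gp93 followed, with means of 284, 284 and 169 FPKM in feeding. PEK was lowest in 9 of 9 libraries, with means of 10.1 to 10.7 FPKM. Of the neighbours in this order, Gp93 and PEK did not overlap in any group, crc and Xbp1 did not overlap in pre-NRC starvation, and Pdi and crc did not overlap in post-NRC starvation. All other neighbours overlapped.

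The ER genes of other roles were read from lists by function. They take in the UPR signalling list and so genes whose products work outside the ER, such as Gcn2, eIF-2alpha and the signal recognition particle. Of 87 such other ER genes tested, 39 fell in pre-NRC starvation against feeding and 0 rose in edgeR, and their median change was -0.64. In the same fit 11.5% of all genes tested fell, the share to set beside the falls of each list below. At an unadjusted p below 0.05 there were 48, DESeq2 called 43 lower and limma-voom 40, with 0 higher in both. The count with the block was 50 (18.8% of all genes fell), and without the libraries numbered 3 it was 48 (21.6% of all genes fell). It fell to 14 and 12 without feeding library 1 or 2, and to 16 and 10 without pre-NRC library 1 or 2. With no scaling beyond library totals it was 29.

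The oligosaccharyltransferase, which moves the sugar tree onto new chains in the ER, was lower in all of its 7 genes tested, with changes of -1.56 to -1.11 and a median of -1.16. All 7 were also called with the block and without the libraries numbered 3, and 5 to 7 in the leave-one-out fits. Ost48 had 669.8 ± 13.6 CPM in feeding and 227 ± 40.7 CPM in pre-NRC starvation (-1.56, SE 0.20, adjusted p = 0.00257). CG33303, another subunit gene, changed by -1.56 (SE 0.26, adjusted p = 0.00526), and CG1518 (Stt3A), a catalytic subunit, by -1.11 (SE 0.20, adjusted p = 0.00627). None of these 3 calls was lost in a leave-one-out fit.

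Of 17 ER chaperones and lectins tested, Hsc70-3 and Gp93 included, 10 fell and 0 rose, with a median of -0.94, and 14 fell with the block and 14 without the libraries numbered 3. The lectin gene Cnx99A (calnexin), whose protein holds sugar-bearing chains, had 475 ± 48.0 CPM in feeding and 168 ± 50.3 CPM in pre-NRC starvation (-1.50, SE 0.25, adjusted p = 0.00557). The co-chaperone gene CG4164 (shv) changed by -1.02 (SE 0.19, adjusted p = 0.00827), and neither call was lost in a leave-one-out fit. The cyclophilin gene CG2852 changed by -0.94 (SE 0.22, adjusted p = 0.0154), a call lost without feeding library 1 or 2 or pre-NRC library 2 (up to 0.0663). The list had 2 falls without pre-NRC library 2.

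Of 11 genes of oxidative folding, Pdi and ERp60 included, 5 fell and 0 rose, with a median of -0.81. CG9302, a disulfide isomerase relative, changed by -1.25 (SE 0.27, adjusted p = 0.0127, and 0.0517 without pre-NRC library 2). CG5027 (Tmx3), a transmembrane thioredoxin, changed by -0.81 (SE 0.20, adjusted p = 0.02), and its call was lost without the libraries numbered 3 (0.0529). The list had 0 falls without pre-NRC library 2, 7 with the block and 6 without the libraries numbered 3.

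Of 20 genes of translocation into the ER, 9 fell and 0 rose (median -0.65). The list had 13 falls with the block, 11 without the libraries numbered 3 and 0 without feeding library 1. Sec61beta, a subunit of the channel, changed by -1.02 (SE 0.23), twr, a subunit of the signal peptidase, by -0.83 (SE 0.19) and TRAM by -0.77 (SE 0.18), with adjusted p values of 0.0149, 0.0162 and 0.0176. Each of these calls was lost without feeding library 1 or 2 or pre-NRC library 2, with values of up to 0.0675. Of 13 genes of ER-associated degradation 5 fell (median -0.59), among them Npl4, a cofactor of the segregase that pulls chains out of the membrane (-1.08, SE 0.21, adjusted p = 0.00811), Der-1 (-0.94, SE 0.21) and Ubqn (-1.16, SE 0.28). The list had 7 falls with the block, 7 without the libraries numbered 3 and 1 without pre-NRC library 2. The call of Npl4 was not lost in any leave-one-out fit. That of Der-1 (adjusted p = 0.0148) held in 8 of the 9 fits and that of Ubqn (adjusted p = 0.0176) in 5, with values of up to 0.0664. Of 16 genes of ER exit 4 fell (median -0.43), including KdelR, the receptor that returns chaperones to the ER (-0.76, SE 0.19, adjusted p = 0.0195), eca (-0.62, SE 0.18, adjusted p = 0.0317) and loj (-0.73, SE 0.23, adjusted p = 0.044), both of the p24 cargo receptor family. The calls of KdelR and eca each held in 5 of the 9 leave-one-out fits, and that of loj in 1 (up to 0.133). The list of ER exit had 6 falls with the block, 7 without the libraries numbered 3, 1 with upper-quartile factors and 0 without feeding library 1.

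**Figure D3:**
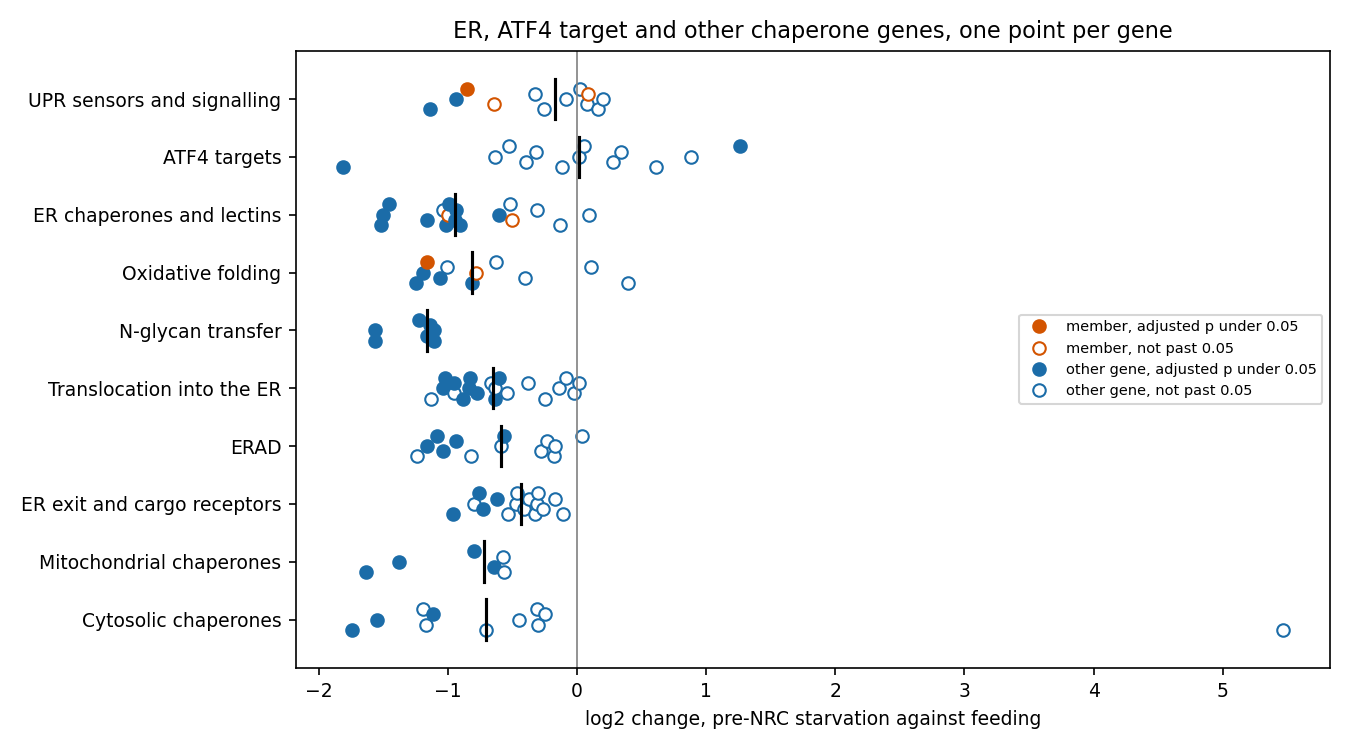
Log2 change in pre-NRC starvation against feeding (x axis) of each tested gene of 10 lists (rows), with the list median as a vertical bar. Filled points have an adjusted p below 0.05. All 7 genes of N-glycan transfer are filled and lie between -1.56 and -1.11, while the sensors and the ATF4 targets lie on both sides of 0.

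The genes of UPR signalling did not move as one. Of 12 tested, 3 fell and 0 rose (median -0.17): Xbp1, P58IPK, which encodes a co-chaperone of the ER lumen (-0.93, SE 0.23, adjusted p = 0.0196), and CG9987 (RtcB), the ligase that joins the Xbp1 exons (-1.14, SE 0.24, adjusted p = 0.0111). The call of CG9987 held in 9 of 9 leave-one-out fits and that of P58IPK in 6. Without the libraries numbered 3, and with the block, 4 of the 12 fell, crc being the added one. The sensors Ire1 (0.16, adjusted p = 0.705) and Atf6 (-0.25, adjusted p = 0.665) did not pass, nor did the eIF2alpha kinase Gcn2 (0.20, adjusted p = 0.491). eIF-2alpha itself (-0.09, adjusted p = 0.827), the phosphatase subunit gene Gadd34 (-0.32, adjusted p = 0.362), wfs1 (0.08, adjusted p = 0.816) and CG6353 (0.02, adjusted p = 0.963) did not pass either.

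Of 13 genes listed as ATF4 targets, 1 rose and 1 fell, with a median of 0.01. Gadd45, a stress-inducible gene, rose and had 32.6 ± 1.65 CPM in feeding and 78.4 ± 32.0 CPM in pre-NRC starvation (1.27, SE 0.33, adjusted p = 0.0239). CG11899, the phosphoserine aminotransferase of serine synthesis, fell and had 119 ± 16.5 CPM in feeding and 33.8 ± 21.4 CPM in pre-NRC starvation (-1.81, SE 0.44, adjusted p = 0.0183). The call of Gadd45 held in 4 of the 9 leave-one-out fits and that of CG11899 in 6. Without the libraries numbered 3, 4 of the targets rose and 2 fell. A share of all genes for rises alone is not given here for either fit.

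In post-NRC starvation against feeding, 0 of the 87 other ER genes were called in edgeR, where 0.809% of all genes tested were called. There were 7 at an unadjusted p below 0.05, 1 lower in DESeq2 and 0 in limma-voom. The median of the 87 was -0.22. Without the libraries numbered 3, 1 was called higher and 3 lower, where 6.83% of all genes were called. In post-NRC against pre-NRC starvation edgeR called 3 of the 87 higher and 0 lower, where 5.19% of all genes tested were called. Their median was 0.50, and 40 were at an unadjusted p below 0.05. DESeq2 called 21 higher and 1 lower, and limma-voom 10 higher. Shares of all genes at the unadjusted p, in DESeq2 and in limma-voom are not given here. The 3 called in edgeR were Ost48 (1.08, SE 0.20, adjusted p = 0.0347), CG2852 (1.06, SE 0.22, adjusted p = 0.0377) and Npl4 (1.00, SE 0.21, adjusted p = 0.0378). Each was lost in at least 6 of the 9 leave-one-out fits (up to 0.145), and in those fits 0 to 21 of the 87 were called higher, 0 of them without feeding library 1 or 2 and 21 without pre-NRC library 3. Without the libraries numbered 3, 36 were called higher and 2 lower, where 15.4% of all genes were called higher. With the block 29 were called higher and 0 lower, where 7.06% of all genes were called higher.

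Chaperone genes of other compartments were read beside those of the ER. Of 6 mitochondrial chaperone genes tested 4 fell (median -0.72), among them Hsp60 (-1.38, SE 0.24, adjusted p = 0.00587), Hsc70-5, the mitochondrial Hsp70 (-0.79, SE 0.17, adjusted p = 0.0133), and Trap1, the mitochondrial Hsp90 (-0.64, SE 0.16, adjusted p = 0.0194). The call of Hsp60 held in 9 of 9 leave-one-out fits, and the list had 1 fall without feeding library 1, 6 of 6 with the block, and 7 of 7 without the libraries numbered 3, where 1 more gene passed the filter. Of 11 cytosolic chaperone genes 3 fell (median -0.70), namely Hop (-1.55, SE 0.26), Hsc70Cb (-1.11, SE 0.22) and Hsp23 (-1.74, SE 0.44). The count was 5 in DESeq2, 4 in limma-voom (median -0.44), 4 with the block and 7 without the libraries numbered 3. The highest change of the list was that of Hsp27 (5.47, SE 2.02, adjusted p = 0.0732), named after its values were seen, whose pre-NRC libraries ranged from 0.153 to 62.4 CPM. Hsc70-4, the main cytosolic Hsp70 (-0.25, adjusted p = 0.406), and Hsp83, the cytosolic Hsp90 (-0.70, adjusted p = 0.0551), did not pass. Hsp83 passed with the block (0.0476) and without the libraries numbered 3 (0.034).

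The ratio of an ER chaperone to its relative needs no library scaling. The ratio of Hsc70-3 to Hsc70-5 counts was 2.96, 2.92 and 7.06 in feeding, 2.65, 2.73 and 5.18 in pre-NRC and 3.41, 3.73 and 6.36 in post-NRC starvation, so library 3 was far above the others in each group. The log2 difference was -0.23 in pre-NRC starvation against feeding (exact permutation test, two-sided, p = 0.5), and -0.16, -0.10 and -0.45 within the numbers 1, 2 and 3. For Hsc70-3 over Hsc70-4 it was -0.76 (exact permutation p = 0.3), with ratios of 0.166, 0.162 and 0.315 in feeding and 0.0912, 0.0863 and 0.221 in pre-NRC starvation, and within the numbers it was -0.86, -0.91 and -0.51. For Gp93 over Trap1 in post-NRC starvation against feeding it was 0.78, with no overlap between the groups (ratios of 5.19, 5.43 and 8.63 in feeding and 8.73, 10.7 and 13.1 in post-NRC starvation, exact permutation p = 0.1). Within the numbers that difference was 0.75, 0.99 and 0.60. Permuted within numbers, as pairs, these 3 ratios each gave an exact p = 0.25, the smallest that 3 pairs allow. The smallest p that 3 against 3 libraries allow is 0.1, and after adjustment over the 12 ratio tests the values were 0.655 or 0.9.

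The libraries numbered 3 differed in opposite directions for the folding genes and for crc and Xbp1 in TMM-scaled counts. With the group in the fit, their difference from libraries 1 and 2 was 0.93 for Hsc70-3 on the log2 scale, a ratio of 1.91, and 0.55 for Gp93, 0.55 for Pdi and 0.51 for ERp60. It was -0.49 for Xbp1, -0.46 for crc and -0.11 for PEK. The median of all genes tested was -0.01. It was 0.39 over the ER chaperones and lectins, 0.47 over oxidative folding and 0.36 over N-glycan transfer, in which 7 of 7 genes were positive, against -0.46 over the mitochondrial chaperones, in which 0 of 6 were.

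**Figure D4:**
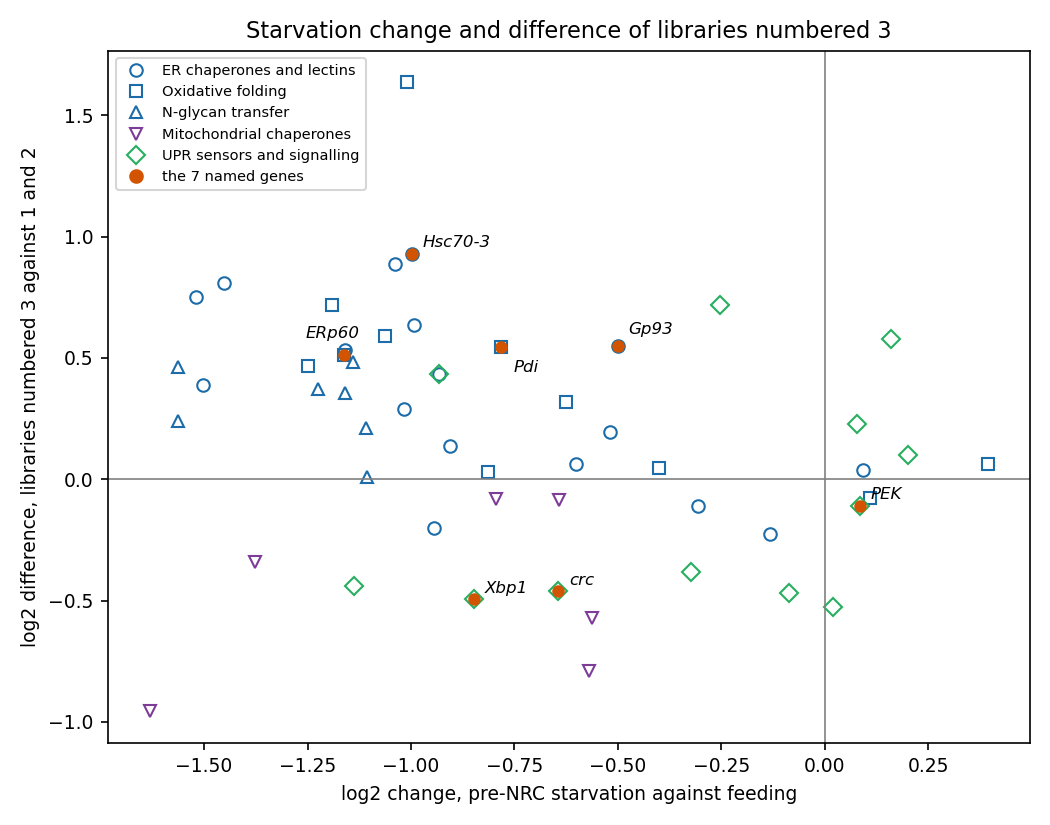
Difference of the libraries numbered 3 from libraries 1 and 2 (y axis, log2, with the group in the fit) against the change in pre-NRC starvation (x axis, log2), 1 point per gene of 5 lists, with the 7 named genes filled. Both axes use the same libraries; Hsc70-3, Gp93, Pdi and ERp60 lie above 0 on the y axis and to the left of 0 on the x axis, and crc and Xbp1 lie below 0 on the y axis.

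Markers of other tissues moved with the groups and with the libraries numbered 3. The summed level of 5 gut markers was 59.6 to 508 CPM in feeding, 1705 to 12009 CPM in pre-NRC and 973 to 3709 CPM in post-NRC starvation, and 4 of the 5 rose in pre-NRC starvation (3 without the libraries numbered 3). The 6 hemocyte and lymph gland markers summed to 320.1 to 971 CPM in feeding and 1522 to 2671 CPM in pre-NRC starvation, where 3 of them rose (5 without the libraries numbered 3), and to 596 to 1009 CPM in post-NRC starvation. The 7 salivary gland markers summed to 311 to 2412, 16.3 to 107 and 41.9 to 2597 CPM in feeding, pre-NRC and post-NRC starvation, and 3 of them fell in pre-NRC starvation (5 without the libraries numbered 3). The 6 muscle and aorta markers summed to 5045 to 5295, 6980 to 10126 and 1802 to 3961 CPM, and the 5 neuron markers to 41.9 to 94.5, 103 to 116 and 54.0 to 115.1 CPM, with 2 of each list higher in pre-NRC starvation (without the libraries numbered 3, 2 and 3). The 8 fat body markers summed to 614 to 1643, 159.7 to 2119 and 468 to 1609 CPM, with library 3 highest in each group, and of them Yp1 was at 0 in the feeding libraries. Of these 1 rose and 0 fell in pre-NRC starvation, against 1 and 3 without the libraries numbered 3. The 7 ring gland markers, led by the ecdysone enzyme genes phm and sad and the hormone gene Akh, were all detected and summed to 26639 to 38294, 16526 to 21809 and 22332 to 31770 CPM, and 5 of them fell and 1 rose in pre-NRC starvation. For scale, the fit of groups called 27.5% of all genes tested in either direction before the checkpoint, and 11.5% lower. Without the libraries numbered 3, 21.6% of all genes fell. A share of all genes for rises alone is not given here, so the rises of these lists have no background of their own. The part of these tissues in the levels of the 7 genes was not tested. In such pooled glands, fewer cells of a type and less RNA per cell cannot be told apart.

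Over the 9 libraries, the genes most like Hsc70-3 were CG2747, Oatp74D, an ecdysone importer, Src64B, shg, the E-cadherin gene, and LBR. Likeness was the root mean square distance between log2 CPM values centred on each gene's mean, among 5773 genes with at least 20 CPM on average, and these distances were 0.101 to 0.144. Pdi ranked at place 73 (0.235), ERp60 at 132 (0.272) and Gp93 at 227 (0.309). The genes most like crc were CG33932, CG9921, eIF3-S10, sra and Roe1 (0.118 to 0.133), and Xbp1 ranked at place 27 (0.171). In the list of Hsc70-3, crc ranked at place 2954 and Xbp1 at 2846. This distance takes in the difference of the libraries numbered 3 as well as that of the groups. The former was 0.74 to 1.05 in the 5 genes most like Hsc70-3 and -0.57 to -0.41 in the 5 most like crc. Hsc70-3, Xbp1 and crc had changes of the same sign in pre-NRC starvation (-0.997, -0.85 and -0.64). They differed in sign in the libraries numbered 3 (0.93, -0.49 and -0.46).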

How the data were processed

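The authors deposited whole-number counts and FPKM values for each gene and library. The submitters' processing notes name the build BDGP6 and the tools Bowtie, Cufflinks, HISAT2 and StringTie. Their versions and roles, and the counting tool with its strand setting, were not given in the sources used here. Per the labels' protocols, libraries were made with a directional RNA kit and read as paired ends. Column names of the starved groups say so, and the remaining columns, which carry WT and a time of 108 h, were taken as feeding by elimination. Labels call the pools biological replicates, so p values were taken to reflect variation from pool to pool. Feeding libraries 1 and 2 lay almost together, at -90.9 and -91.1 on the first principal component and 32.6 and 32.0 on the second. They were also summed as 1 library in an alternative fit, and whether they are separate pools was not tested.

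The counts were filtered with filterByExpr (10883 of 14409 genes kept), scaled by TMM factors and fitted with edgeR 4.0.16 (R 4.3.3), 1 coefficient per group, two-sided, with a threshold of 0.05. The biological coefficient of variation was 50.6%. DESeq2 1.42.0, limma 3.58.1, other scalings, filters and library sets, the replicate block, and limma-trend on FPKM with a pseudocount of 1 or 0.1 were the alternatives, and a term for the libraries numbered 3 was added after seeing the data. The edgeR fit was tested on simulated data with a lower spread than these libraries and no difference of the libraries numbered 3. That test therefore does not show how the fit performs on these data. Log2 ratios of counts had 0.5 added to each count. Coordinates and overlaps came from annotation BDGP6.54, in which Pdi was matched by symbol. Total counts were 29123939 to 36131089 per library, and the number of pools, 3 per group, limits the precision.

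Deviations from the group means were correlated between libraries of the same number, at 0.116 to 0.302 (pre-NRC and feeding) and 0.119 to 0.297 (post-NRC and feeding), all over 0.1, against -0.223 to 0.125 for different numbers. Between numbers 1 and 2 the correlations for pre-NRC and feeding were 0.125 and 0.116, near the 0.163 and 0.116 within them. The numbers were taken as pairing libraries in comparisons with feeding, which rests on the data alone. These values set library 3 apart but do not establish numbers 1 and 2 as pairs. The members and all gene lists were chosen with earlier results of these data known; of 176 list entries, 172 matched by table symbol, 2 by current symbol and 2 not at all. Named are the 7 members, all UPR signalling genes, the relatives of the chaperones, the 5 genes most like Hsc70-3 and crc, and in each other list up to 3 genes with the smallest p past the threshold in pre-NRC starvation against feeding, or else up to 2 of the most expressed.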

Additional observations from a re-analysis of the deposited data

Results flagged for a closer look

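Among the genes named, 6 stood at different levels in the 2 starved groups by the direct test of post-NRC against pre-NRC starvation in edgeR. Larval age and starvation cannot be told apart in this test. CG11899 stood 2.18 higher after the checkpoint on the log2 scale (SE 0.44, adjusted p = 0.0377), Hsp23 stood 2.06 higher (SE 0.44, adjusted p = 0.0389), Ost48 1.08 higher, CG2852 1.06 higher and Npl4 1.00 higher. The muscle gene up stood lower, at -1.53 (SE 0.32, adjusted p = 0.0378). Each of these calls held in only 2 or 3 of the 9 fits that left out 1 library, with adjusted p values of up to 0.151 in the others. None of the 7 ER folding and UPR genes was among them.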

How the results depend on the processing

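The changes of the 7 genes kept their direction under every alternative run, except those of PEK and that of Gp93 in post-NRC starvation against feeding. PEK was at -0.31 and -0.25 against feeding in pre-NRC and post-NRC starvation without the libraries numbered 3, and in post-NRC against pre-NRC starvation at -0.033 with RLE factors and in DESeq2, -0.012 with upper-quartile factors and -0.039 with a minimum of 50 counts in 3 libraries. Leaving out 1 library gave -0.19 to 0.44, -0.18 to 0.45 and -0.069 to 0.13 for PEK in the 3 comparisons, and -0.040 to 0.28 for Gp93, which was at -0.0022 with feeding libraries 1 and 2 summed. Of the 7 genes, 1 was called in pre-NRC starvation with RLE or upper-quartile factors, limma-voom, no filter, the 50-count minimum, only the 2 groups, or the summed libraries, and 6 without the libraries numbered 3 or with a term for them. Over all genes, 2998 calls in pre-NRC starvation became 4598 without those libraries, 4501 with the term and 1263 with the summed libraries. The 88 calls in post-NRC starvation became 733 in DESeq2, 41 in limma-voom, 42 with only the 2 groups, 741, 408 and 18. The 565 calls in post-NRC against pre-NRC starvation became 1886 in DESeq2, 79 with only the 2 groups, 3041, 2182 and 51, and 1121 and 979 on log2 FPKM with a pseudocount of 1 and 0.1. In that comparison 1 of the 7 genes was called in DESeq2, 4 without the libraries numbered 3 and 4 with the term. The cause was not tested.

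With the replicate number as a block, 6 of the 7 genes were called in pre-NRC starvation and 0 in post-NRC starvation against feeding, with 193 calls over all genes in the latter. In post-NRC against pre-NRC starvation same-number correlations were 0.0998 to 0.365, the highest being that of the libraries numbered 3. The lowest fell just under 0.1, so the numbers were not taken as pairing libraries there, though library 3 stood apart in both starved groups. The block moved the count from 0 to 4 of the 7, all higher (7.06% of all genes), and from 565 to 1512 over all genes.

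Leaving out 1 library gave 0 to 4 of the 7 genes in pre-NRC starvation and 0 to 1 in post-NRC against pre-NRC starvation. Over all genes it gave 1166 to 3404, 14 to 171 and 6 to 1551 calls in the 3 comparisons. The log2 ratio of Hsc70-3 to Hsc70-5 then ran from -0.55 to 0.19 before and from -0.14 to 0.56 after the checkpoint, against feeding, that of Hsc70-3 to Hsc70-4 from -0.24 to 0.40 in post-NRC starvation, that of Gp93 to Trap1 from -0.14 to 0.35 in pre-NRC starvation, and that of Gp93 to Hsp83 from -0.018 to 0.48 in pre-NRC starvation and -0.010 to 0.40 between the starved groups.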

Other observations

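Of 3 serine synthesis genes listed as ATF4 targets, 1 stood higher, 1 stood lower and 1 did not pass the test after the checkpoint against before it. CG11899 went from 33.8 ± 21.4 to 153 ± 55.4 CPM (log2 change 2.18), while aay, the phosphoserine phosphatase, went from 30.3 ± 13.1 to 6.74 ± 0.728 CPM (-2.17, SE 0.34, adjusted p = 0.0284, a call that held in 3 of the 9 fits that left out 1 library). The small heat shock gene Hsp26 stood higher in the same comparison (1.99, SE 0.44, adjusted p = 0.0429, held in 2 of 9), as did Hsp23. CG6287, the phosphoglycerate dehydrogenase, did not pass (1.78, SE 0.70, adjusted p = 0.147). These 3 genes, aay, CG6287 and Hsp26, were named after their values were seen.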
